A study of Mus musculus with 6 samples.

Results

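SNARE proteins and their partners carry out membrane fusion, and the array values of 51 genes of this machinery were followed across 6 mouse samples. The genes were taken by name: every gene whose symbol begins with Stx, Stxbp, Vamp, Snap, Syt or Sytl followed by a digit, among the 18194 genes with a single symbol in the array's gene table. Together they were measured by 119 probe sets, and each gene is represented by its brightest probe set, judged by the average of all 6 arrays. Snap91 entered through its name, although it encodes a clathrin assembly protein and no SNARE. All 51 genes were found by Entrez identifier in RefSeq (GRCm38.p6) under the same symbol.

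MIN6 is an insulin-secreting line derived from mouse beta cells. Its cells carried an adenovirus for miR-7a (AdmiR7a, 2 arrays), for miR-7b (AdmiR7b, 1 array) or for green fluorescent protein (AdGFP, 1 array), given at 250 infectious particles per cell (multiplicity of infection) and left 48 h, in DMEM with 4.5 g/l glucose, 2% serum and 5.5 µM mercaptoethanol. Islets on a C57BL/6 background came from mice in which miR-7a2 was deleted in beta cells with Cre and loxP (KO, 1 array), with 1 array of wild-type islets (WT) beside them. The Cre driver, the age and number of the animals and whether islets were pooled are not given in the sources used here, nor is whether the AdmiR7a duplicates were separate cultures, so the p-values measure only the spread between these arrays.

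When an insulin granule fuses, a VAMP on the granule zips together with a syntaxin and a SNAP25-type protein on the plasma membrane. Munc18 proteins hold and shape the syntaxin, synaptotagmins couple fusion to calcium, and synaptotagmin-like proteins tether granules through Rab27. Other syntaxins serve the endoplasmic reticulum, Golgi, endosomes and autophagosomes.

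The microRNA strands that were raised or deleted are shown because both vectors and the knockout are defined by them, with bases 2 to 8 (the seed, which pairs with target transcripts) in capitals. They are RefSeq sequences, 5′ to 3′, build GRCm38.p6.
mmu-miR-7a-5p (from Mir7-2, chr7:78888295-78888317, plus strand): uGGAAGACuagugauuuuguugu
mmu-miR-7b-5p (from Mir7b, chr17:56243017-56243040, plus strand): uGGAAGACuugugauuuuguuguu
mmu-miR-7a-2-3p (the other arm of Mir7-2, chr7:78888335-78888356, plus strand): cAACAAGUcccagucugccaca
The 5p strands share their seed. Over the 23 bases compared, miR-7b-5p differed from miR-7a-5p at 1 position, A10U, counted from 1 at the 5′ end. The same miR-7a-5p is also encoded by Mir7-1 (chr13:58392841-58392863, minus strand), a separate locus from miR-7a2.

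Of the beta-cell genes, Ins2 lay at 15.69 to 15.91 (log2) in MIN6 cells and at 15.82 in KO and 15.83 in WT islets. The glucose transporter gene Slc2a2 was at or under 3.84 in MIN6 cells, compared with 14.49 in KO islets and 14.15 in WT islets, so this beta-cell marker was near background in the line. Other beta-cell genes also stood lower on the miR-7 arrays than on AdGFP, Pdx1 by a difference of -0.99, Nkx6-1 of -0.76 and Slc30a8 of -0.73, while Ins2 was at 0.06 and Iapp at -0.01; the part of this shift in the differences of the fusion genes was not tested. MIN6 cells also held signal of some other islet and duct genes. Gcg of alpha cells lay at 12.71 to 13.35 and Sst of delta cells at 9.28 to 9.64. Ppy lay at 5.59 to 6.75 and Krt7 of ducts at 11.57 to 11.84. Others of the same cell types were low in MIN6 cells: Irx2 of alpha cells at 3.34 to 3.38, and Krt19 and Sox9 of ducts at 2.68 and 2.23. The delta-cell gene Hhex, the endothelial gene Cdh5 and the immune gene Ptprc lay at 2.17 on all MIN6 arrays and at 9.05, 7.82 and 7.74 in KO and 9.01, 7.68 and 7.57 in WT islets. Across the fusion genes tested in MIN6 cells, the AdmiR7a duplicates differed by an SD of 0.20 (log2), as over all genes (0.20). The mean of the miR-7 arrays differed from AdGFP by an SD of 0.44, against 0.52 over all genes. The first SD compares single arrays and the second a mean of 3 arrays with 1. Probes for 18S ribosomal RNA averaged 13.63 and 13.63 on the AdmiR7a arrays and 13.89 on AdmiR7b, against 13.99 on AdGFP, and their part in the differences with miR-7 was not tested.

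With miR-7a or miR-7b in MIN6 cells, some syntaxin and synaptotagmin genes rose and others fell, by modest amounts, and the share called was near that of all genes. Stx1a, Syt2, Snap23, Stx3, Stxbp3, Syt7, Syt11 and Stx6 were 1.32- to 1.79-fold higher on the miR-7 arrays than on AdGFP. Syt14, Stx5a, Snap91, Stx17 and Syt9 were 1.29- to 2.16-fold lower. No VAMP gene passed the test in either direction (0 of 6 tested). Of the 51 genes, 40 had a mean of at least 4 (log2) in MIN6 cells and were tested. Of these, 8 rose and 5 fell in a limma fit of the 3 miR-7 arrays against the 1 AdGFP array (adjusted p below 0.05, Benjamini-Hochberg, over 10367 genes). That is 20% and 12.5% of the fusion genes, against 14.0% and 12.1% of all genes tested. In either direction it is 32.5%, against 26.2%. All 3 miR-7 arrays lay above AdGFP for 18 fusion genes and below it for 14 (45% and 35%, against 46.2% and 33.2% of all genes). The median difference of the fusion genes was 0.03 and that of all genes 0.06. All 13 calls rest on 1 AdGFP array. Most genes had all miR-7 arrays on the same side of it, so that position adds no support to a call. The differences themselves stayed between 0.887 and 1.13 times their size when 1 miR-7 array was dropped. The test already selects genes with a small spread among these arrays, so this range adds no support either. With 1 residual degree of freedom, however, no gene of the 10367 passed (0%), so no call was left (0 of 13) when the first AdmiR7a array, the second AdmiR7a array or AdmiR7b was dropped, with lowest adjusted p of 0.0650, 0.0784 and 0.0671 among the 13 genes, and without a filter on low values 1 of the 13, Stxbp3, was still called.

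**Figure D1:**
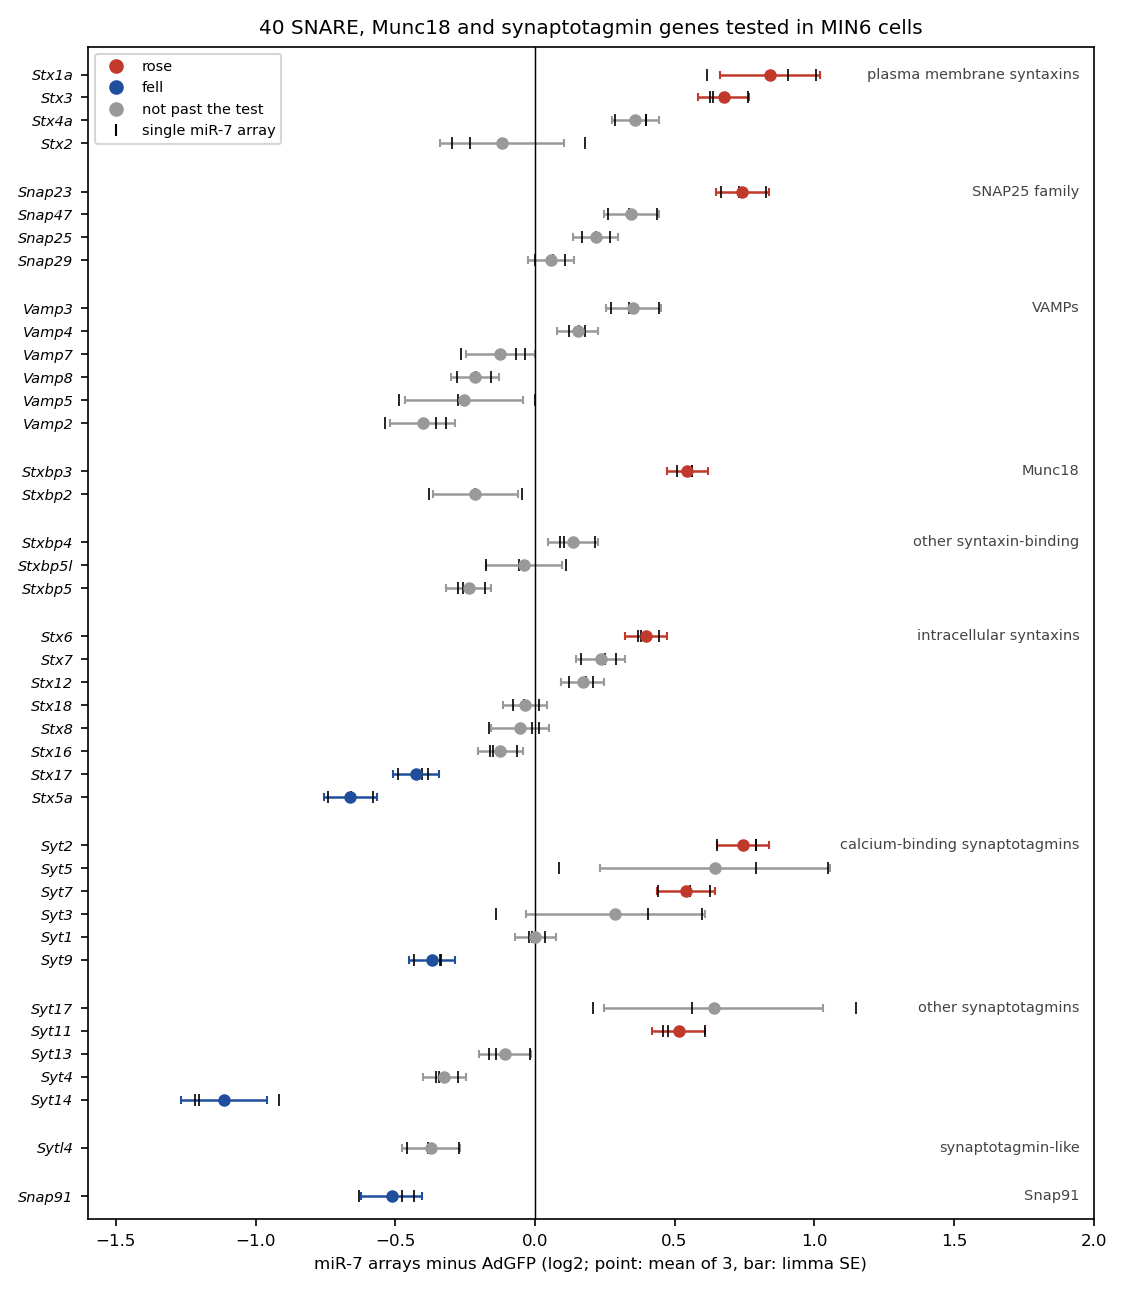
Difference of the miR-7 arrays from AdGFP (log2, x axis) for the 40 fusion genes tested in MIN6 cells, grouped by role. Points are means of 3 arrays with the limma SE, short vertical ticks are the single arrays, and colour marks the 8 genes that rose and the 5 that fell.

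Among plasma membrane syntaxins, Stx1a and Stx3 rose, and none of the 4 tested fell. Stx1a, the syntaxin of fast regulated insulin release, had 8.62 and 8.91 with AdmiR7a and 9.01 with AdmiR7b, against 8.0 with AdGFP (0.84 ± 0.18, log2 difference and SE, adjusted p = 0.0415). All 3 miR-7 arrays lay above AdGFP. Its probe set carries the suffix by which Affymetrix marks probes that can also bind other transcripts, and its other probe set was below the filter. The probe sets used for Stx5a, Stx6, Vamp3, Snap47 and Stx18 carry a suffix of this kind too. Stx3, a syntaxin of the plasma membrane and of granules, had 11.31 and 11.30 with AdmiR7a and 11.44 with AdmiR7b, against 10.67 with AdGFP (0.68 ± 0.09, adjusted p = 0.0201). The miR-7 arrays were close together and clear of AdGFP. Stx4a, which serves the slower phase of insulin release, stood at 9.32, 9.21 and 9.32 against 8.93 with AdGFP (0.36 ± 0.09, adjusted p = 0.051). It missed the threshold narrowly. Stx2 was at -0.12 ± 0.22 (adjusted p = 0.721), and its miR-7 arrays lay on both sides of AdGFP.

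In the SNAP25 family 1 of 4 genes rose. Snap23, the broadly expressed relative of Snap25, had 10.83 and 10.99 with AdmiR7a and 10.90 with AdmiR7b, against 10.16 with AdGFP (0.74 ± 0.10, adjusted p = 0.0185). The groups did not overlap. Snap25, the SNARE cleaved by botulinum toxin A and the main partner of Stx1a in beta cells, had 13.79, 13.74 and 13.69 on the miR-7 arrays and 13.52 on AdGFP (0.22 ± 0.08, adjusted p = 0.119). Snap47 stood at 0.35 ± 0.10 (adjusted p = 0.0732) and Snap29, a SNARE of internal membranes and autophagosomes, at 0.06 ± 0.08 (adjusted p = 0.628).

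VAMP genes gave differences between -0.40 and 0.35, none past the test. Vamp2, the VAMP of insulin granules, had 8.27 and 8.23 with AdmiR7a and 8.05 with AdmiR7b, against 8.59 with AdGFP (-0.40 ± 0.12, adjusted p = 0.0769). Vamp3, which can stand in for Vamp2, had 13.19, 13.08 and 13.02 against 12.74 with AdGFP (0.35 ± 0.10, adjusted p = 0.070). Arrays of both genes were separated from AdGFP, in opposite directions, by less than the test required. Vamp8, which serves newly arriving granules, was at -0.21 ± 0.09 (adjusted p = 0.138), Vamp4 of the trans-Golgi at 0.15 and Vamp7 of late endosomes and lysosomes at -0.12.

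Of the Munc18 genes, Stxbp3 (Munc18c, the partner of Stx4) rose. It had 8.88 and 8.93 with AdmiR7a and 8.93 with AdmiR7b, against 8.37 with AdGFP (0.54 ± 0.07, adjusted p = 0.0197). Its miR-7 arrays were nearly equal. Stxbp2 (Munc18-2) stood at -0.21 ± 0.15 (adjusted p = 0.349). Tomosyn genes encode inhibitors that occupy syntaxin in place of a VAMP: Stxbp5 was at -0.24 ± 0.08 (adjusted p = 0.102) and Stxbp5l at -0.04 ± 0.14 (adjusted p = 0.848). Stxbp4 (synip, which binds Stx4) was at 0.14 ± 0.09 (adjusted p = 0.312).

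The calcium-binding synaptotagmins included 2 genes that rose and 1 that fell among 6 tested. Syt7, a high-affinity calcium sensor of insulin release, had 10.28 and 10.16 with AdmiR7a and 10.35 with AdmiR7b, against 9.72 with AdGFP (0.54 ± 0.10, adjusted p = 0.034). Syt2, a fast sensor of neurons, had 7.49, 7.35 and 7.49 against 6.70 with AdGFP (0.74 ± 0.09, adjusted p = 0.0182). Both genes lay above AdGFP on every miR-7 array. Syt9, a sensor found on granules of beta-cell lines, had 8.94, 9.03 and 9.04 against 9.37 with AdGFP (-0.37 ± 0.08, adjusted p = 0.0453). It was the smallest of the 13 called differences. Syt5 varied most among the miR-7 arrays: it had 7.0 and 6.74 with AdmiR7a but 6.04 with AdmiR7b, against 5.95 with AdGFP (0.64 ± 0.41, adjusted p = 0.305). Syt3 was at 0.29 ± 0.32 (adjusted p = 0.537) and Syt1 at 0.00 ± 0.07 (adjusted p = 0.993).

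Synaptotagmins without the usual calcium binding included Syt14, which had the largest difference of all 40 tested genes. It had 8.84 and 8.55 with AdmiR7a and 8.54 with AdmiR7b, against 9.75 with AdGFP, a 2.16-fold lower level (-1.11 ± 0.15, adjusted p = 0.0206). The miR-7 arrays lay together, clearly under AdGFP, and the gene has 1 probe set only. Syt11, which acts in endocytosis, had 10.58, 10.56 and 10.71 against 10.10 with AdGFP (0.51 ± 0.10, adjusted p = 0.0323). Syt4, linked to the maturation of secretion in mouse beta cells, had 12.64, 12.56 and 12.57 against 12.91 with AdGFP (-0.32 ± 0.08, adjusted p = 0.0505) and just missed the threshold. Syt13 was at -0.11 ± 0.09 (adjusted p = 0.438). Syt17 had 4.76, 4.40 and 5.34 against 4.19 with AdGFP (0.64 ± 0.39, adjusted p = 0.288), all near the background.

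Sytl4 (granuphilin, which docks insulin granules at the plasma membrane) had 11.44 and 11.33 with AdmiR7a and 11.25 with AdmiR7b, against 11.71 with AdGFP (-0.37 ± 0.10, adjusted p = 0.0684). The miR-7 arrays were all lower, without passing the test.

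Among the 8 syntaxin genes of internal membranes 1 rose and 2 fell. Stx5a, the syntaxin of transport from the endoplasmic reticulum to the Golgi, had 10.81, 10.73 and 10.65 on the miR-7 arrays and 11.39 on AdGFP (-0.66 ± 0.09, adjusted p = 0.0215). Stx17, the syntaxin of autophagosome fusion, had 7.42, 7.40 and 7.31 against 7.80 with AdGFP (-0.43 ± 0.08, adjusted p = 0.0356). Stx6, of the trans-Golgi network and endosomes, had 11.44, 11.52 and 11.45 against 11.07 with AdGFP (0.40 ± 0.08, adjusted p = 0.0342). For each of these genes the 3 miR-7 arrays lay on the same side of the single AdGFP array, as for most genes tested. The other 5, Stx7, Stx12, Stx18, Stx8 and Stx16, lay between -0.12 and 0.24, none past the test. Snap91, which builds clathrin coats at synapses, had 11.22, 11.18 and 11.03 against 11.66 with AdGFP (-0.51 ± 0.11, adjusted p = 0.0408).

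**Figure D2:**
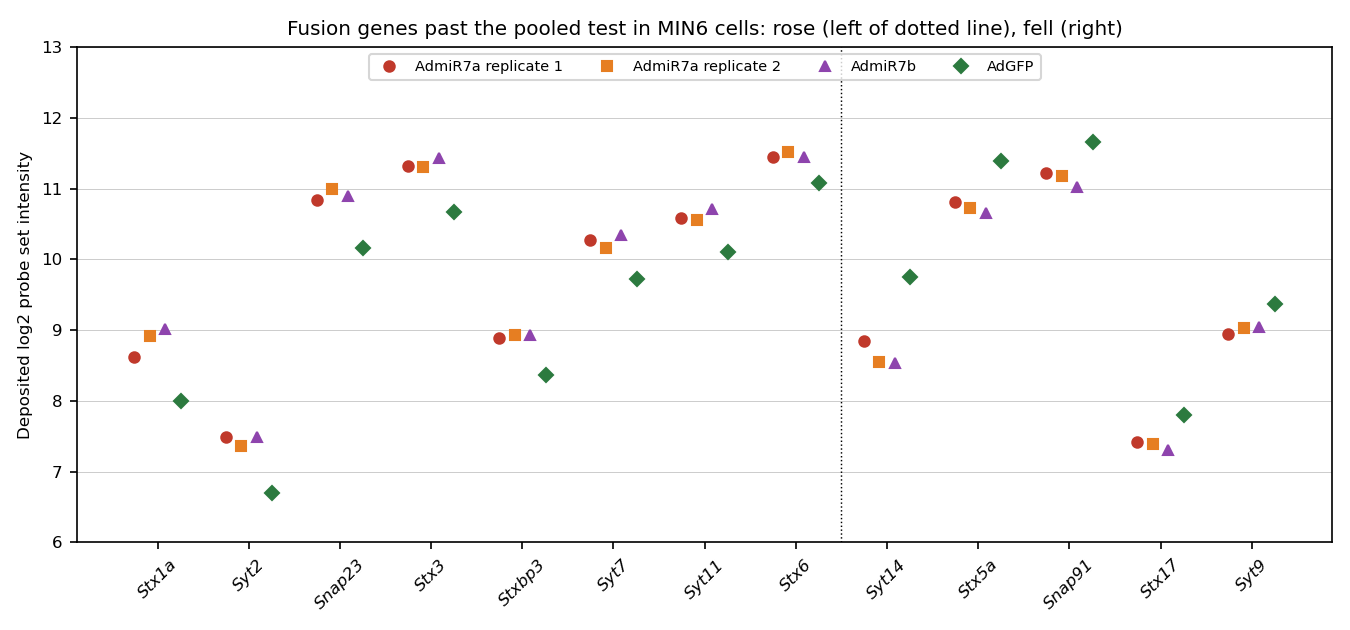
Deposited log2 intensity (y axis) of the 13 fusion genes past the pooled limma test, one symbol per MIN6 array. For the 8 genes left of the dotted line each miR-7 array lies above AdGFP, and for the 5 on the right each lies below it; intensities of different genes cannot be compared with each other.

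Most fusion genes have several probe sets, which read different stretches of the transcripts, and these did not always give the same value. Of 25 genes with more than 1 probe set past the filter, 19 had all of them on the same side of AdGFP. Stx5a was lower by both, at -0.66 and -0.97. Its fall thus did not hang on the choice of probe set. All 5 probe sets of Syt11 (0.51 to 0.87), all 3 of Snap23 (0.47 to 0.74) and all 4 of Stx3 (0.33 to 0.79) were higher with miR-7, as were both of Stxbp3 (0.54 and 0.77). The probe sets of Syt7 gave 0.54, 0.69 and 0.12, so the size of its difference depends on the one read.

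For 6 genes the signs differed: Stx17, Stxbp4, Syt2, Vamp2, Vamp4 and Vamp7. For Vamp2, the second probe set had 6.68, 6.26 and 6.86 on the miR-7 arrays and 5.69 on AdGFP (0.91 ± 0.27, adjusted p = 0.107), against -0.40 for the brighter one. The 2 probe sets of Vamp2 thus give no single direction. Stx17 gave -0.43, -0.18, 0.05 and 0.44, and averaging its probe sets left -0.03 (adjusted p = 0.858). Stx6 averaged over probe sets missed the threshold too (0.32, adjusted p = 0.0503). Stxbp2, Snap29 and Snap47, not called by the probe set used, each had another one that passed: Stxbp2 had 6.82, 6.82 and 6.62 against 7.71 with AdGFP (-0.96 ± 0.12, adjusted p = 0.0307), and Snap29 had 7.68, 7.83 and 7.88 against 7.01 (0.78 ± 0.11, adjusted p = 0.0347). The other probe set of Snap47 had 11.94, 11.94 and 12.05 against 11.49 (0.49 ± 0.08, adjusted p = 0.0444). These values come from a limma fit over all 20234 probe sets past the filter, chosen after seeing the data, in which 16.2% of probe sets were called. In that fit 8 of the 13 calls held, and Snap91, Stx17, Stx1a, Syt7 and Syt9 were lost by adjusted p between 0.051 and 0.064.

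**Figure D3:**
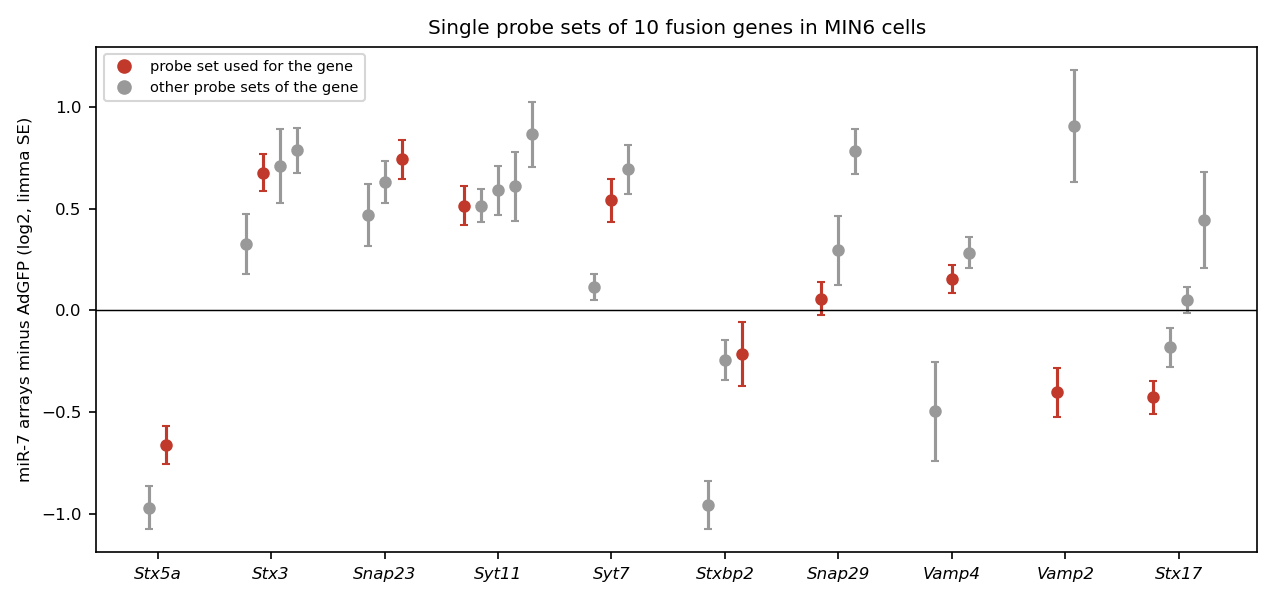
Difference of the miR-7 arrays from AdGFP (log2, y axis, with limma SE) for each probe set past the filter of 10 fusion genes. The probe set used for the gene is in red; those of Stx5a, Stx3, Snap23 and Syt11 fall on the same side of 0, whereas those of Vamp4, Vamp2 and Stx17 fall on both sides.

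The vectors were also compared with each other. Limma called 0 of the 40 for AdmiR7b minus AdmiR7a, and 0% of all genes, with 2 fusion genes and 597 of all genes at an unadjusted p under 0.05. These were Syt5, lower with AdmiR7b than with AdmiR7a (-0.83 ± 0.16), and Syt17, higher with AdmiR7b (0.76 ± 0.20), each with adjusted p = 0.739. The fit has 1 residual degree of freedom, so it does not show that the vectors act alike. The AdmiR7a arrays alone against AdGFP also gave 0 calls (0% of all genes), although 20 fusion genes and 3809 of all genes had an unadjusted p under 0.05. The lowest adjusted p among the fusion genes was 0.0671. That 0 became 9 of 36 with a filter at a mean of 6 (25%, against 18.9% of all genes), 10 of 40 with quantile renormalization (25%, against 21.8%) and 12 of 40 with centred arrays (30%, against 21.7%). It became 5 of 37 when probe sets were averaged (13.5%, against 9.89%) and 1 of 51 without a filter (1.96%, against 1.78%).

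By size alone, AdmiR7b was at least 1 (log2) above AdGFP for Stx1a (1.01) and Syt17 (1.15) and at least 1 below it for Syt14 (-1.22). With AdmiR7a the same genes stood at 0.76, 0.39 and -1.06, both vectors being set against the same AdGFP array. These 3 genes are 7.5% of the fusion genes tested, against 8.18% of all genes (3.82% higher and 4.36% lower). At a size of 0.58, 7 fusion genes were higher and 3 lower, 25% in either direction, against 23.4% of all genes (11.4% lower). There was 1 array per group and thus no replicate check.

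In islets lacking miR-7a2 in beta cells, the fusion genes differed little from wild type. Among 40 measured, the tomosyn-2 gene Stxbp5l was higher in KO by 1.02 (log2), with 8.91 in KO and 7.88 in WT islets. By the probe set used, no gene was lower by that size. This 1 gene is 2.5% of those measured, against 2.84% of all genes (1.61% higher and 1.23% lower). Its other probe sets pointed the same way, with 8.15 in KO and 7.22 in WT islets and with 9.17 in KO and 8.47 in WT islets, differences of 0.93 and 0.69. The gene therefore passes the size of 1 by 1 of its 3 probe sets. Stx18, at -0.34 by the probe set used, was lower in KO by all 5 of its probe sets. One of the others was at -1.12, with 7.09 in KO and 8.21 in WT islets. At a size of 0.58, Stx16, a syntaxin of the trans-Golgi network, was also higher (11.04 in KO, 10.38 in WT), and Vamp5 (5.05 in KO, 5.92 in WT) and Syt5 (5.34 in KO, 5.95 in WT) were lower, the last 2 at weak signal. These 4 genes make 10% of the fusion genes, against 9.10% of all genes (4.54% higher and 4.56% lower). With 1 array per genotype no test was possible.

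Among core genes of the insulin granule machinery, KO minus WT ran from -0.61 (Syt5) to 0.38 (Sytl4). Stx1a had 8.6 in KO and 8.68 in WT islets, Vamp2 9.42 and 9.38 in KO and WT, and Stxbp3 11.01 and 10.96. Snap25 had 13.66 in KO and 13.43 in WT, Syt7 12.59 and 12.47, and Sytl4 13.74 and 13.36. Of these 6 genes, Sytl4 (0.38) and Snap25 (0.23) were the furthest apart, both higher in KO. Other core genes lower in KO were Syt5 (-0.61), Stxbp2 (-0.32), Syt9 (-0.23), Stx3 (-0.12) and Stx4a (-0.05). Vamp3 (0.04) and Vamp8 (0.09) were slightly higher. By other probe sets Stxbp2 was higher in KO (0.22 and 0.15) and Snap25 lower (-0.10), so their direction depends on the one read. Signs also differed between the probe sets of Syt7, Stxbp3 and Vamp3. In all, 28 of 40 fusion genes (70%) lay within 0.2 of wild type, against 56.1% of all genes, and the median difference was -0.07, against -0.02 for all genes. In whole islets, fewer cells of a type and less RNA per cell cannot be told apart. The endothelial gene Pecam1 differed by -1.11 (KO minus WT), whereas Cdh5 and Kdr of the same cells were at 0.14 and 0.02. Some markers of other cells stood higher in KO, Krt19 of ducts by 1.77 (4.45 in KO, 2.68 in WT) and Nkx6-1 of beta cells by 0.73. Cd68 and Adgre1 of macrophages were higher by 0.50 and 0.51, with Ptprc at 0.18. Krt7 and Sox9, also of ducts, were at -0.05 and 0. Of the other beta-cell genes, Ins2 and Iapp were at -0.01, Slc30a8 at -0.21, Pdx1 at 0.28 and Slc2a2 at 0.34. Spiked poly-A controls averaged 8.37 in KO and 9.50 in WT. Their part in these differences was not tested.

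**Figure D4:**
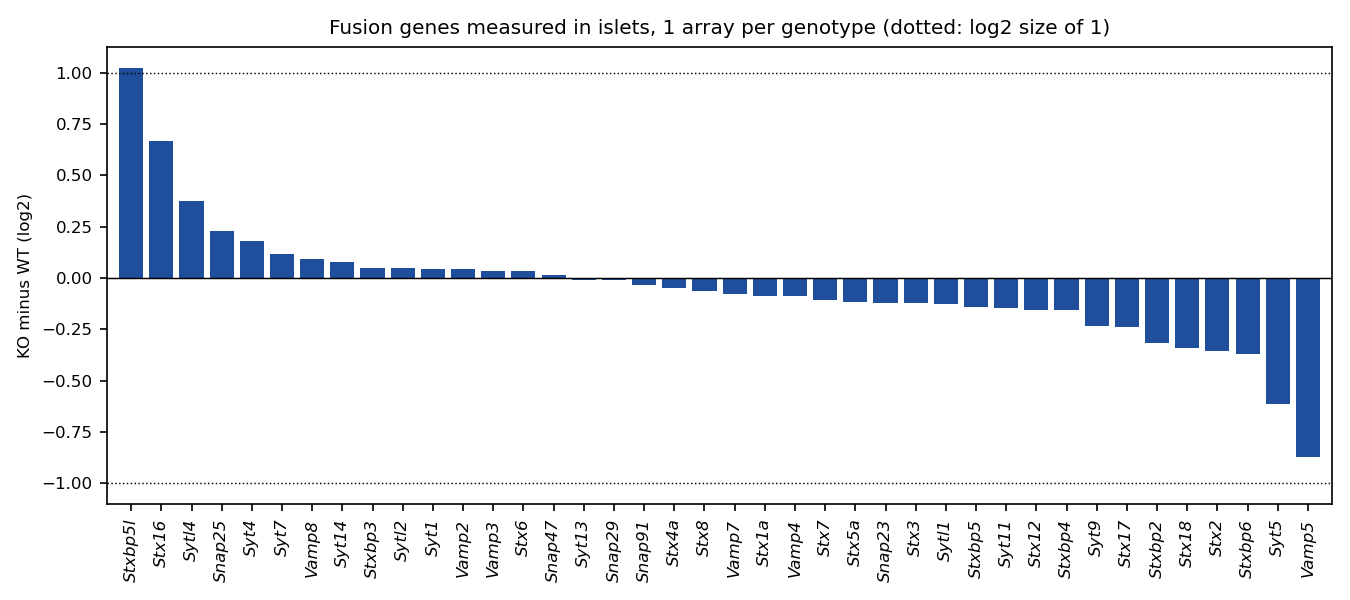
KO minus WT islets (log2, y axis) for the 40 fusion genes with a mean of at least 4 in islets, ordered by size, with 1 array per genotype and no error bar. Stxbp5l alone passes the dotted line at 1, and Vamp5 lies lowest at -0.87.

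The 13 genes called in MIN6 cells showed no mirrored pattern of size in KO islets. Syt2 was below the filter in islets (2.70 in KO, 3.14 in WT). For the other 12, KO minus WT was at most 0.24 in size, and 5 had the opposite sign to miR-7. Syt14 was 0.08 higher in KO, with 10.40 in KO and 10.32 in WT islets. Stx1a was at -0.09 and Snap23 at -0.12 (KO minus WT). Among 37 genes measured in both systems, 0 were lower with miR-7 and higher in KO by 0.58 each, against 1.14% of all genes. Syt5 was the 1 gene of the reverse kind (2.7%, against 0.952% of all genes), and its miR-7 difference did not pass the test.

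MIN6 cells and islets differed more from each other than the treated from the control samples for several fusion genes. Where the lowest array of one system lay at least 1 (log2) above the highest of the other, the gene is given here as set apart. Among the 37 genes past the filter in both systems, Snap91 was set apart with the higher level in MIN6 cells, and Syt7, Stxbp3, Sytl4, Stx17 and Stx8 with the lower, 16.2% against 21.9% of 9765 genes. Another 4, Stxbp6, Sytl1, Sytl2 and Syt2, were set apart but passed the filter only through the system in which they were high, which favours a difference. Syt3 and Syt17 also passed only in MIN6 cells and were not set apart, their nearest arrays being 0.21 and 0.62 apart. With all of these it is 10 of 43 genes, 23.3% against 29.8% of all genes. By direction, 4.65% were higher in MIN6 cells, against 14.1%, and 18.6% lower, against 15.6%, shares that the filter helps to set. The systems differ in cell source, culture, virus and genotype, so these values are a description without a test. The controls stood apart too: hybridisation controls averaged 11.62 to 11.85 on MIN6 arrays, against 10.02 in KO and 10.04 in WT islets, and poly-A controls 6.67 to 6.87, against 8.37 in KO and 9.50 in WT. Their part in these values was not tested.

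Stxbp6 (amisyn, which binds SNAP25 and syntaxin) was near the background in MIN6 cells at 2.21 to 2.30, against 8.80 in KO and 9.17 in WT islets. Sytl1 and Sytl2, both partners of Rab27, were likewise below the filter in MIN6 cells at 2.65 to 3.15 and 2.17 to 2.21, against 5.65 and 4.03 in KO and 5.78 and 3.98 in WT islets. The line thus gave no usable signal for these 3 genes. Sytl4 had 11.25 to 11.71 in MIN6 cells, against 13.74 in KO and 13.36 in WT islets. Syt7 had 9.72 to 10.35 in MIN6 cells, against 12.59 in KO and 12.47 in WT. Stxbp3 had 8.37 to 8.93 in MIN6 cells, against 11.01 in KO and 10.96 in WT. All of these are well measured on both sides. The rise of Syt7 and Stxbp3 with miR-7 was small beside their distance from the islet arrays. By the probe set used, Stx17 was also lower in MIN6 cells, with 7.31 to 7.80 against 9.10 in KO and 9.34 in WT. Another of its probe sets had 7.01 to 7.07 in MIN6 cells, against 6.97 in KO and 6.98 in WT. The systems lay less than 1 (log2) apart by its remaining probe sets, so this distance depends on the one read. Stx8, a syntaxin of late endosomes, was lower in MIN6 cells too, with 8.69 to 8.87 against 10.13 in KO and 10.20 in WT.

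In the other direction, Syt2 had 6.70 to 7.49 in MIN6 cells but 2.70 in KO and 3.14 in WT islets, below the filter. Snap91 had 11.03 to 11.66 in MIN6 cells, against 9.68 in KO and 9.72 in WT islets. Rbfox3, a nerve cell gene, was at 2.17 on all MIN6 arrays and at 6.40 in KO and 6.37 in WT islets, while Sox10 (3.02) and S100b (2.17 to 2.21) hardly varied over the 6 arrays. Syt13 (13.10 to 13.26 in MIN6 cells, 13.29 in KO, 13.30 in WT), Syt1 (5.50 to 5.56, 5.51 and 5.47) and Stxbp4 (8.47 to 8.68, 8.49 and 8.65) were at nearly one level on all 6 arrays. The other probe sets of Syt1 lay near the minimum, at 2.17 to 2.40, so its level rests on 1 weak probe set. Vamp1, Stx11, Stx19, Syt6, Syt8, Syt10, Syt12 and Syt16 lay below the filter in both systems, so 8 of the 51 genes were not assessed.

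**Figure D5:**
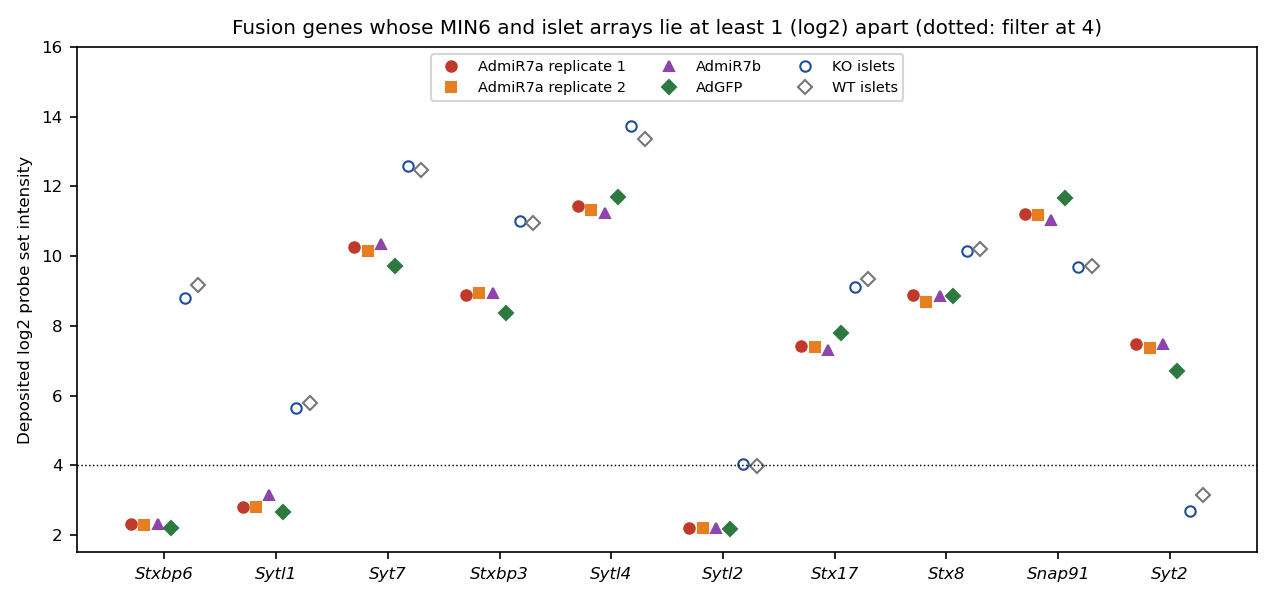
Deposited log2 intensity (y axis) on each array for the 10 fusion genes whose MIN6 (filled symbols) and islet arrays (open symbols) lie at least 1 (log2) apart. The MIN6 arrays of Stxbp6, Sytl1 and Sytl2 and the islet arrays of Syt2 lie under the filter at 4.

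Partner genes of the same pathway were counted in the same fit. Of 69 listed, 56 were tested in MIN6 cells, and 9 rose and 9 fell by limma, 32.1% against 26.2% of all genes, a share near the background, with a median of 0.02. The complexin gene Cplx1 had 7.67 and 7.38 with AdmiR7a and 7.28 with AdmiR7b, against 9.44 with AdGFP (-2.0 ± 0.18, adjusted p = 0.0133), and Cplx2 was at -0.72 ± 0.12. Both measured complexins fell. Of 12 SNAREs of internal membranes outside the named families, 4 rose and 1 fell: Sec22b (0.59), Bet1l (0.53), Sec22a (0.42) and Bnip1 (0.34) rose, and Ykt6 fell by 0.71. Ykt6, Sec22b and Bet1l act with Stx5a in transport to and within the Golgi, and Stx5a and Ykt6 fell while the other 2 rose.

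Among granule-associated genes, the small GTPase gene Rab3b rose by 1.1 ± 0.09 and the Rab effector gene Rph3al by 0.41, whereas Exph5, a Rab27 effector, fell by 0.43. The vesicle chaperone gene Dnajc5 fell by 0.93, the vesicle glycoprotein gene Sv2c fell by 1.28 and the synapsin gene Syn1 fell by 0.34, while Sv2b rose by 0.53 and Snapin, which binds Snap25, by 0.50. Napb, which helps to take SNARE complexes apart, fell by 0.49, the active zone gene Rimbp2 fell by 0.36, and the exocyst gene Exoc4 rose by 0.33. The adjusted p (limma) of these 18 genes lay between 0.0126 and 0.0476. Dropping any 1 of the miR-7 arrays left 0 of 56 called, and 5 passed without a filter. In islets, Cadps2, a priming factor of dense-core granules, had 6.40 in KO and 7.62 in WT, the only 1 of 56 measured partner genes at least 1 (log2) apart.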

How the data were processed

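The authors deposited log2 probe set intensities of 6 Affymetrix arrays; the submitters' processing notes name affy and GCRMA, which corrects background from probe sequence and normalizes between arrays, without versions. The 45101 values per array reach down to a shared minimum of 2.17, so low genes have compressed differences. The number of arrays limits the precision. Genes and symbols came from the platform table (symbols checked by Entrez identifier). Genes with a mean under 4 (log2) over the arrays of a system were left out. The 3 miR-7 arrays were compared with AdGFP with limma 3.58.1 (R 4.3.3; lmFit, eBayes, two-sided, 2 residual degrees of freedom), and vectors with a mean each; both assume that the single AdGFP array varies like the others. p-values were Benjamini-Hochberg adjusted over all genes tested. KO against WT and MIN6 against islets were described by size. Alternatives were filter, probe set rule, normalization, variance trend and left-out arrays. Members and lists were chosen with earlier results of these data known. Genes named were those past the test, past a log2 size of 1 or separated between systems, the brightest in each system, and a core list of the insulin granule machinery; further members were named after their values were seen. Some genes of these families are not reported here.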

Additional observations from a re-analysis of the deposited data

How the results depend on the processing

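All 13 pooled calls kept direction under every alternative run, Stx17 at only -0.03 with averaged probe sets. Read singly, other probe sets past the filter went the other way for Stx17 (0.44 and 0.05) and Syt2 (-0.23). The 13 also kept the call with a filter at a mean of 6, renormalization, centring, an intensity trend and the probe set highest in the system compared. Without a filter 4 genes rose (Stxbp3, and Stx11, Stxbp6 and Sytl2, which lay at or under 2.30 in MIN6 cells and shifted by at most 0.09), 0 fell, and 5 partner genes passed in place of 18; 1 KO against WT difference became 2, and AdmiR7a gave 1 call. Leaving out 1 miR-7 array gave 0 genes that rose, 0 that fell and 0 partner genes (range 0 to 0). Fitting each probe set, chosen after seeing the data, left 6 that rose and 2 that fell. AdmiR7a alone gave 9 calls (filter at 6), 5 (averaged probe sets), 10 (renormalization) and 12 (centring) in place of 0. Genes at least 1 apart fell to 1 for AdmiR7b with averaged probe sets and to 0 by a limma contrast borrowing the AdmiR7a spread, and for KO to 0 with averaged probe sets, the probe set brightest in islets or renormalization (Stxbp5l, 0.69 to 1.04 over all settings). At a size of 0.58 they were 10 for AdmiR7b (25%, against 23.4% of all genes), 4 for KO (10%, against 9.10%) and 17 for MIN6 against islets. At 0.3, 1 gene was lower with miR-7 and higher in KO. Counts for which no share of all genes is given, here or above, were not set against a background. They show nothing particular to the fusion genes. Except by construction of the alternative, the cause was not tested. No paired analysis was possible because only the AdmiR7a labels carry replicate numbers and every other group has 1 array. Signal near the minimum limits Syt1, Syt3, Syt5, Syt17 and Vamp5.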
